A study of Rattus norvegicus with 12 samples.

Results

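Rat PAC1 cells express a partial set of the secreted Wnt ligands, their Frizzled receptors and the secreted proteins that restrain them, and these genes were followed across 4 groups of libraries. They were chosen by name from the count table as every symbol made of Wnt, Fzd, Sfrp or Dkk followed by a number, with or without a final letter. This gave 37 of 33294 genes: 19 Wnt ligands, 10 Frizzled receptors, 4 secreted Frizzled-related proteins (Sfrp) and 4 Dickkopf proteins (Dkk). PAC1 is a smooth muscle cell line derived from rat pulmonary artery, and poly(A) RNA was sequenced from 12 cultures, 3 in each group. In D1, cells kept in a more differentiated state by splitting once a week received a control siRNA. In P, cells kept in a more proliferative state by more frequent splitting at a higher dilution received the same control siRNA. RBPMS KD1 cells were differentiated cells given siRNA against Rbpms, an RNA-binding protein that regulates splicing in smooth muscle. MBNL KD cells were differentiated cells given siRNAs against Mbnl1 and Mbnl2, splicing regulators of the muscleblind-like family (the sample titles name MBNL1 alone). Every group was transfected with siRNA, so none shows untreated cells, and P differs from D1 in passaging and, by the study's methods, in seeding density as well as in cell state.

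Wnt ligands are secreted lipid-modified glycoproteins that bind Frizzled receptors on the same or on nearby cells. With the co-receptors Lrp5 and Lrp6 they stabilise beta-catenin, which then acts with TCF and LEF transcription factors, and with receptors such as Ror1 and Ror2 they act on cell shape, polarity and movement without beta-catenin. Sfrp proteins bind Wnt ligands outside the cell, while most Dickkopf proteins bind Lrp5 and Lrp6, and in arteries these signals are known for their part in smooth muscle proliferation and survival.

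Each library held between 80842635 and 90771289 counts, and the lowest total was that of MBNL KD replicate 3. This library also differed most from its partners. Chi-square per degree of freedom over genes was 12.8 for it against MBNL KD replicate 1 and against replicate 2. For the other pairs within a group it was 3.68 to 7.7. Levels are given as scaled counts, which are counts divided by each library's TMM scaling factor and set to the size of an average library. They compare libraries for 1 gene and not genes with each other, since no transcript lengths were used. The siRNA targets matched their labels. Rbpms fell by 2.00 on the log2 scale in RBPMS KD1 against D1 (SE 0.035, adjusted p = 1.13e-25 in edgeR's quasi-likelihood test), and in MBNL KD Mbnl1 fell by 2.07 and Mbnl2 by 1.75. All 8 smooth muscle markers checked, Myh11 and Acta2 among them, lay above the detection limit of 3 counts in every library, with a summed level of 870347 to 914855 scaled counts in D1, 18716 to 19888 in P, 433760 to 449217 in RBPMS KD1 and 694962 to 705331 in MBNL KD. Acta2 made up 46.8% to 53.7% of this sum in D1 and the knockdowns, and 2 of the 8 were higher in MBNL KD than in D1 by adjusted p, Myh11 (4563 ± 283 in D1 and 6616 ± 317 in MBNL KD, SD, n = 3) and Cnn1 (1701 ± 37.3 and 1844 ± 42.9). The summed level of 6 endothelial markers was 67.0 to 72.4 in D1, 488 to 606 in P, 162 to 165 in RBPMS KD1 and 83.2 to 128 in MBNL KD. Tek made up 57.5% of the mean level in P, and Vwf 56.4% to 58.6% in the other groups. Cdh5 had no count outside P and 122 ± 7.94 scaled counts in P (SD, n = 3). Pecam1 overlapped, at 4.09 ± 2.03 in D1 and 5.05 ± 3.83 in P, and Kdr and Tie1 had at most 6 counts in any library. Fibroblast markers summed to 1277730 to 1341300 in D1, 1592460 to 1775010 in P, 1778390 to 1891970 in RBPMS KD1 and 1156200 to 1189300 in MBNL KD. The leukocyte list summed to 5178 to 5549.7 in D1, 4346 to 4544 in P, 7495 to 7709 in RBPMS KD1 and 4663 to 4947 in MBNL KD, while its defining marker Ptprc had at most 4 counts in any library. The epithelial list summed to 3154 to 3310.2 in D1, 7130.2 to 7399 in P, 3448 to 3677 in RBPMS KD1 and 4763 to 4848 in MBNL KD, with no count of Epcam outside P. In each of these 3 lists 1 gene carried the sum, since Col1a1 made up 98.9% to 99.3% of the mean fibroblast level of a group, Cd14 97.3% to 98.7% of the leukocyte level and Krt8 99.6% to 99.8% of the epithelial level. Not every fibroblast marker followed Col1a1, as Pdgfra was 474 ± 16.7 in D1 and 389 ± 27.9 in P, and Lum was 11673 ± 433 in D1 against 8969 ± 307 in the RBPMS KD1 libraries (SD, n = 3). The part of other cell types in the results that follow was not tested, and in these bulk libraries fewer cells of a type and less RNA per cell cannot be told apart.

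Of the 37 genes, 22 passed edgeR's filter on low counts, which asks for about 10 counts in at least 3 libraries, in at least 1 comparison, and 15 passed in none. Among the ligands, Wnt3a, Wnt7a, Wnt8a, Wnt8b, Wnt9b and Wnt16 had at most 2 counts in any library. Wnt10a reached 4 counts, Wnt3 and Wnt7b 6, and Wnt1 8. The receptor Fzd10 and the inhibitor Dkk2 had no count in any library, and Dkk1, the best-known Dickkopf, had a single count over the 12 libraries. Sfrp1 reached 8 counts and Sfrp5 reached 10. At the limit of 3 counts a library, 9 of the 37 genes were not detected anywhere, which at this depth limits their level and does not show that they are silent. The 9 tested ligands were Wnt2, Wnt2b, Wnt4, Wnt5a, Wnt5b, Wnt6, Wnt9a, Wnt10b and Wnt11, of which Wnt2, with at most 102 counts in any library, Wnt6 (101), Wnt5b (60), Wnt2b (42) and Wnt11 (36) were the lowest. All Frizzled receptors but Fzd10 were tested, and of the inhibitors Sfrp2, Sfrp4, Dkk3 and Dkk4.

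**Figure D1:**
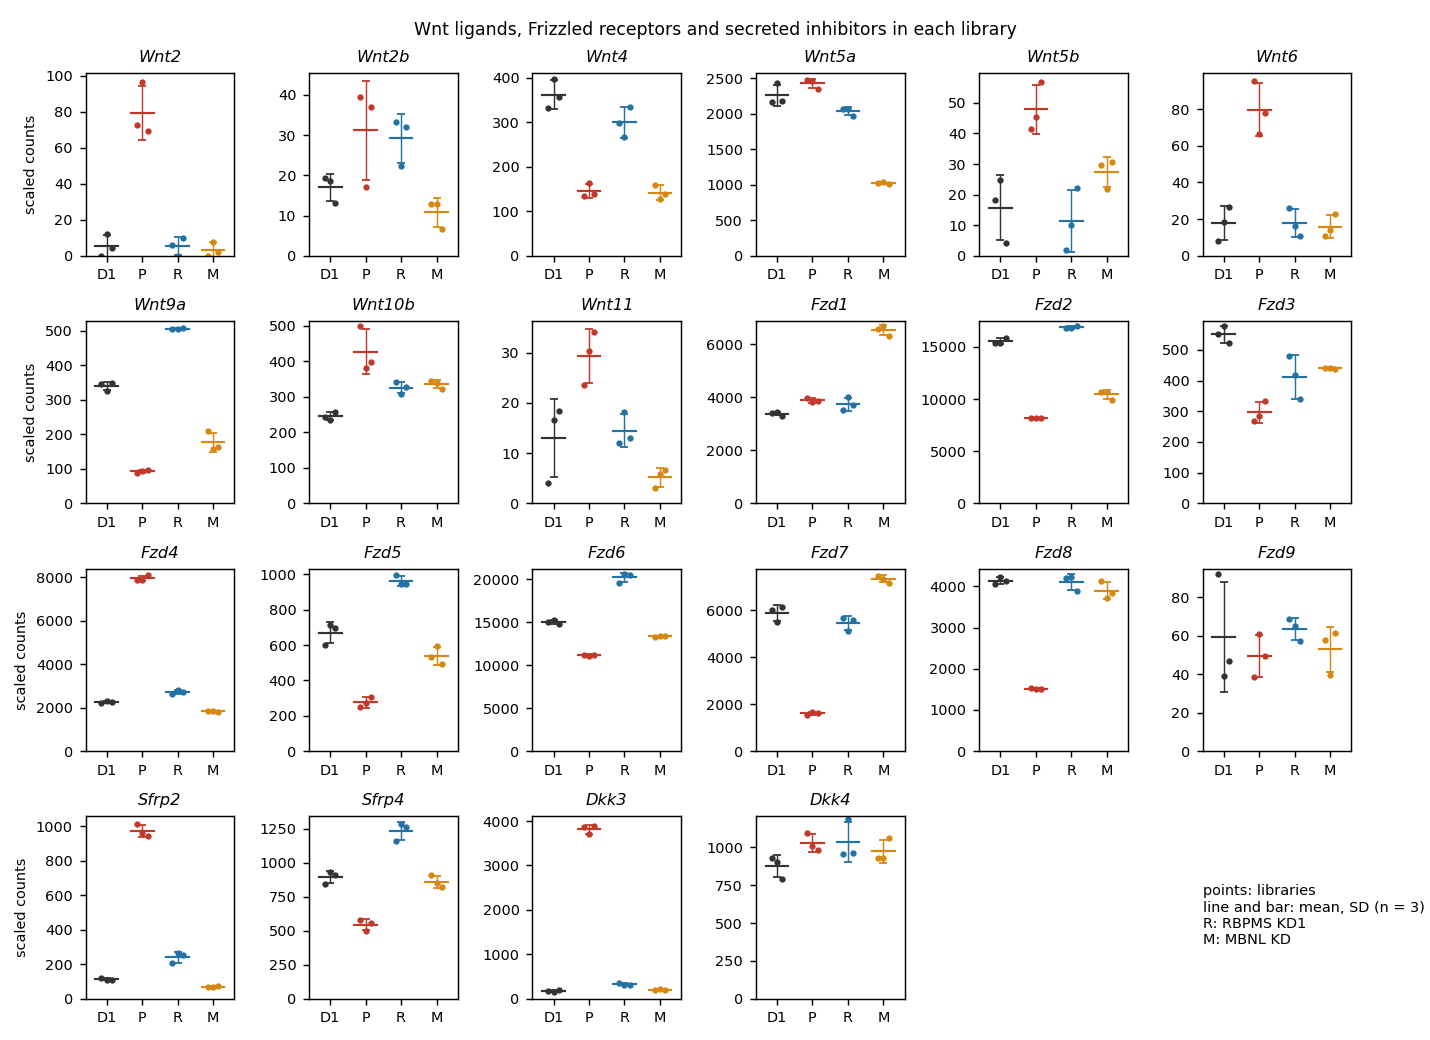
Scaled counts (vertical axes, from 0) of the 22 tested genes in each of the 12 libraries, by group on the horizontal axes, with points for libraries and a line and bar for the mean and SD (n = 3). Dkk3, Sfrp2 and Fzd4 stood highest in P, Fzd7 and Fzd8 lowest in P, and Wnt5a lowest in MBNL KD.

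Promoter sequence was read for 4 genes on which the knockdown comparisons turn, namely Wnt4, Wnt5a, Wnt9a and Sfrp2. These are the 250 bases before the annotated start of each gene in RefSeq on the assembly GRCr8, which is not the assembly used for counting, and all 4 lie on the plus strand: Wnt4 at chr5:154797200-154797449, Wnt5a at chr16:3703415-3703664, Wnt9a at chr10:44593441-44593690 and Sfrp2 at chr2:171387286-171387535. They were searched on both strands for the TCF/LEF cores CTTTGAT and CTTTGTT, the CArG box that serum response factor binds in smooth muscle genes, and the E box CACGTG, and a match is in capitals.
Wnt4: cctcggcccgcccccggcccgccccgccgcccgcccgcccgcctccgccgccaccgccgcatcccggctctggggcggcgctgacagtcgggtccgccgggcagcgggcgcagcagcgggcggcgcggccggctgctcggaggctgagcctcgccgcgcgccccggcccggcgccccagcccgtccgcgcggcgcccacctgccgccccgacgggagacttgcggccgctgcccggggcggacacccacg
Wnt5a: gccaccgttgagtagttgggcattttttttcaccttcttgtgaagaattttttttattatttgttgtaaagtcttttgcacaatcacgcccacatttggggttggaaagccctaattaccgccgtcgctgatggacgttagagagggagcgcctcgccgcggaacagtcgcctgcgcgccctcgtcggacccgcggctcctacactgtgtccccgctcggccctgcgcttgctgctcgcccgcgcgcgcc
Wnt9a: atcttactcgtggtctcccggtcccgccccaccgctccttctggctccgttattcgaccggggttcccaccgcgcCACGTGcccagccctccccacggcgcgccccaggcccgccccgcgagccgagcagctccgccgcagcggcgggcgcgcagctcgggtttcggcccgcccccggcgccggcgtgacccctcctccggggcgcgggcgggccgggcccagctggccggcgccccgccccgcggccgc
Sfrp2: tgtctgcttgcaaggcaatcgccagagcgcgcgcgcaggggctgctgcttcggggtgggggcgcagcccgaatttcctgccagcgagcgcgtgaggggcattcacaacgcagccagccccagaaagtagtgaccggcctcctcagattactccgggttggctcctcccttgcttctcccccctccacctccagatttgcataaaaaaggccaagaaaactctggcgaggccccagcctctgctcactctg
Of these only Wnt9a held a match, the E box. Promoters were at hand for 26 of the 37 genes, and among them the E box stood in 2 (Wnt2b and Wnt9a), CTTTGTT in 1 (Dkk1), and CTTTGAT and the CArG box in 0. Of 33469 rat promoters of the same length, 5.59% held the E box, 5.14% CTTTGTT, 3.15% CTTTGAT and 1.5% the CArG box. GC content differed more visibly, with a median of 66.8% over the 26 promoters against 51.2% over all, and 86.4% for Wnt4, 81.2% for Wnt9a, 62.4% for Sfrp2 and 57.2% for Wnt5a. These letters describe the windows and say nothing of binding.

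The comparison of P with D1 asks how these genes differ between the proliferative and differentiated states of the same cell line. Proliferative cells had more Dkk3, Sfrp2 and Fzd4 and less Fzd7, Fzd8, Fzd5, Wnt9a and Wnt4. To be called, a gene had to differ by more than 1 on the log2 scale, up or down, at a Benjamini-Hochberg adjusted p under 0.05. Of 22 genes tested, 7 were called higher in P and 5 lower, where 16.4% and 11.2% of all 16814 tested genes were. By adjusted p alone 12 were higher and 9 lower, against 40.4% and 37.6% of all genes, and the median log2 fold change was 0.15 against 0.02 over all genes. Wnt2, Wnt5b, Wnt6 and Wnt11, all among the 7, passed the filter on low counts only through their P libraries, so the group in which they are high selected them and their calls are given as description. Among the other 18, 3 were called higher and 5 lower, and their median log2 fold change was -0.35, so the sign of the median turned without the 4.

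Among the ligands, Wnt2, known for its role in lung development, had 0, 12.4 and 4.08 scaled counts in the D1 libraries and 72.6, 96.7 and 69.3 in P. Its log2 fold change was 3.83 (SE 0.43), given as description since it passed the filter only through P, and the groups did not overlap. Wnt6, a ligand of epithelia and somites, had 8.16, 18.6 and 26.5 in D1 and 95.3, 66.3 and 77.8 in P, a log2 fold change of 2.16 (SE 0.31) with every P library above every D1 library. Wnt5b and Wnt11, ligands best known for signalling without beta-catenin, were called higher at lower levels. Wnt5b had 18.4, 24.7 and 4.08 scaled counts in D1 and 41.5, 45.5 and 56.9 in P (log2 fold change 1.60, SE 0.38). Wnt11 had 4.08, 16.5 and 18.3 in D1 and 23.6, 30.3 and 34.2 in P (log2 fold change 1.17, SE 0.41). The Wnt11 call rested on few counts, since without D1 replicate 1 the log2 fold change was 0.74 (adjusted p = 0.112, edgeR) and without P replicate 3 it was 1.05 (adjusted p = 0.0584). It was also lost under quantile normalization, which gives every library the same distribution of values (0.55, adjusted p = 0.243, edgeR), and in limma, another linear-model test, on the authors' normalised values (0.26, adjusted p = 0.151). In limma the calls of Wnt6 (0.87) and Wnt5b (0.51) were lost by size and not by p. Wnt5b overlaps the F-box gene Fbxl14 on GRCr8, which had 2823 to 2994 counts in D1, 3623 to 3866 in P, 2757 to 2958 in RBPMS KD1 and 3093 to 3549 in MBNL KD, and its part in the Wnt5b values was not tested.

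Wnt9a and Wnt4 went the other way. Wnt9a, which takes part in joint and blood stem cell formation, had 347, 326 and 347 scaled counts in D1 and 86.8, 94.8 and 96.8 in P, a level 27.3% of that in D1. Its log2 fold change was -1.88 (SE 0.13, adjusted p = 7.35e-15, edgeR). Wnt4, needed for kidney tubules and the female reproductive tract, had 331, 397 and 358 in D1 and 135, 163 and 139 in P. It fell by 1.32 on the log2 scale (SE 0.12, adjusted p = 9.28e-12, edgeR), with no overlap between the groups. Wnt5a, the ligand of Ror2, was nearly level: 2172, 2435 and 2178 in D1 and 2482, 2460.2 and 2358 in P, which overlapped, for a log2 fold change of 0.10 (SE 0.045, adjusted p = 0.0430). Its pass of the adjusted p was lost under 6 alternatives, among them leaving out D1 replicate 1 (0.066, adjusted p = 0.243, edgeR), D1 replicate 3 (0.069), P replicate 1 (0.088) or P replicate 2 (0.095). Wnt10b, a ligand that favours bone over fat formation, was 246 ± 11.1 in D1 and 428 ± 63.9 in P (SD, n = 3; log2 fold change 0.80), but it overlaps the abundant tubulin gene Tuba1c on GRCr8, and the strand setting of the counting is not given in the sources used here. Tuba1c had 18437 to 19244 counts in D1 and 21396 to 22577 in P. Wnt2b, with 17.1 ± 3.33 in D1 and 31.2 ± 12.3 in P, had a log2 fold change of 0.86 (adjusted p = 0.0390, edgeR) and overlapping libraries. Its pass was lost on leaving out D1 replicate 1, 2 or 3 or P replicate 1 or 3 (0.66 to 0.96), under quantile normalization (0.28), in limma (0.14) and in DESeq2 (0.87), and without P replicate 2 it was called (1.16).

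Receptors differed in both directions. Fzd4, known as the Norrin receptor of retinal vessels, had 2214, 2287 and 2257 scaled counts in D1 and 7872, 7887 and 8079.9 in P. It was 3.52-fold higher in P (log2 fold change 1.81, SE 0.033, adjusted p = 2.69e-31, edgeR), and it was the only Frizzled called higher. Fzd7, a receptor of stem and progenitor cells, had 5983, 5503 and 6139 in D1 and 1547, 1654 and 1624 in P, a level 27.4% of that in D1. Its log2 fold change was -1.87 (SE 0.041, adjusted p = 9.23e-29, edgeR). Fzd8 had 4050.3, 4219 and 4126 in D1 and 1526, 1498 and 1496 in P, a log2 fold change of -1.46 (SE 0.039). Fzd5, close to Fzd8 in sequence, had 601, 711 and 697 in D1 and 247, 272 and 307 in P, a log2 fold change of -1.29 (SE 0.093). In all 3 every P library lay below every D1 library. By adjusted p but not by size, Fzd2 (-0.93), Fzd3 (-0.90) and Fzd6 (-0.43) were lower in P and Fzd1 (0.20) was higher, each on the log2 scale and each with libraries that did not overlap. Fzd9 did not pass, with a log2 fold change of -0.26 (SE 0.29, adjusted p = 0.405, edgeR) and overlapping libraries, which without D1 replicate 1 became 0.19 and under quantile normalization -0.76 with a pass (adjusted p = 0.0284).

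Of the inhibitors, Dkk3, a divergent Dickkopf that does not act on Lrp5 and Lrp6 as Dkk1 does, had the largest difference of the 22 tested Wnt, Frizzled, Sfrp and Dickkopf genes in this comparison. It had 177, 156 and 204 scaled counts in D1 and 3867, 3698 and 3888 in P, 21.2-fold more (log2 fold change 4.41, SE 0.064, adjusted p = 5.96e-34, edgeR). Sfrp2, a Wnt-binding protein of the stroma, had 122, 111 and 108 in D1 and 1012, 963 and 944 in P, 8.50-fold more (log2 fold change 3.09, SE 0.092, adjusted p = 4.51e-25, edgeR). Sfrp4, a related protein of bone and kidney phosphate handling, went the other way, from 896 ± 44.1 in D1 to 545 ± 41.3 in P (SD, n = 3; log2 fold change -0.72, SE 0.072), with no overlap. Dkk4 differed little, with 875 ± 72.1 in D1 and 1028 ± 59.1 in P (log2 fold change 0.23, adjusted p = 0.00234), and its pass was lost under quantile normalization (adjusted p = 0.0961, edgeR) and in limma (adjusted p = 0.157). Beside these differences the summed smooth muscle markers were lower in P than in D1. The summed endothelial markers were higher, though Pecam1 overlapped, as given above.

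**Figure D2:**
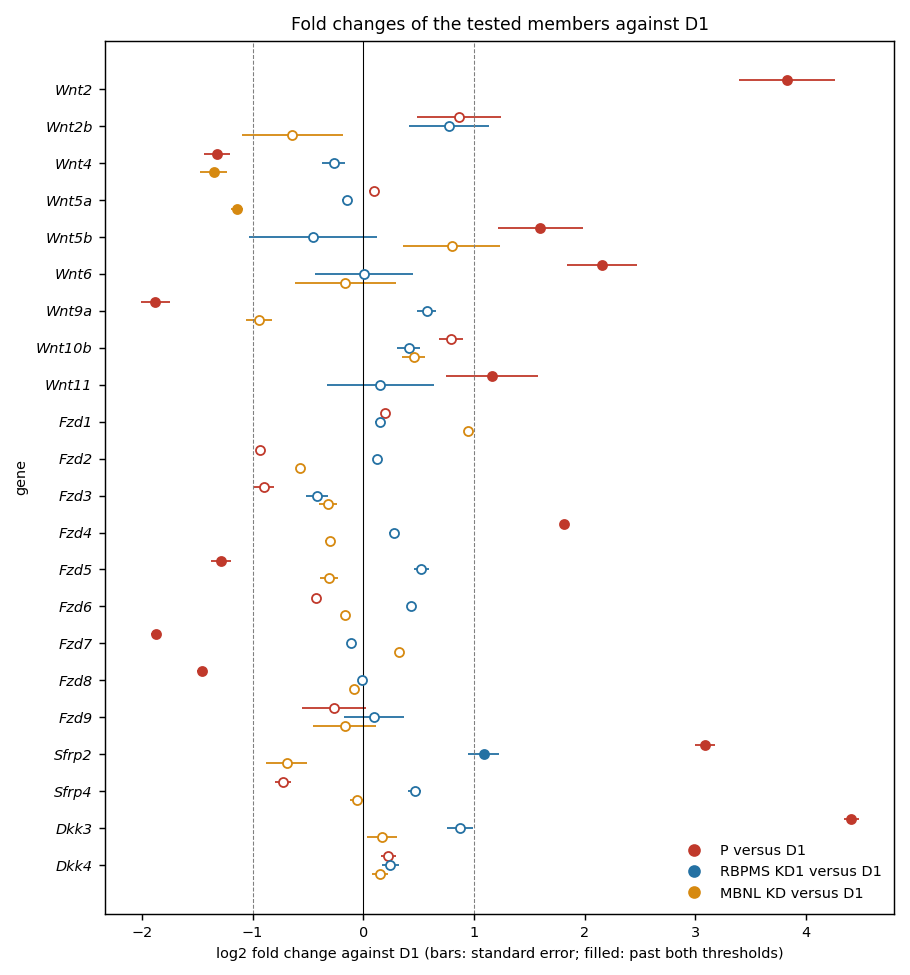
Log2 fold change (horizontal axis) of each tested gene (vertical axis) in P, RBPMS KD1 and MBNL KD, each against the same 3 D1 libraries, with points for edgeR estimates, bars for their standard errors, dashed lines at changes of 1 up and down, and filled points for genes past both thresholds. Filled points are 12 for P, 1 for RBPMS KD1 (Sfrp2) and 2 for MBNL KD (Wnt4 and Wnt5a).

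The comparison of RBPMS KD1 with D1 asks which of these genes respond when differentiated cells lose Rbpms. It uses the same D1 libraries as the comparisons of P and MBNL KD, so the values are set side by side without a test of their likeness. Sfrp2 was the 1 gene called, higher in RBPMS KD1, and several receptors and inhibitors were higher by smaller amounts. Of 21 genes tested, 1 was called higher and 0 lower, where 3.06% and 1.62% of all 15904 tested genes were. By adjusted p alone 11 were higher and 4 lower, against 29.5% and 29.5% of all genes, with a median log2 fold change of 0.16 against 0.0043. DESeq2 also called 0 lower, and at an unadjusted p under 0.05 edgeR had 4 lower. Wnt6 and Wnt11 passed the filter only through RBPMS KD1, and Wnt5b through the 2 groups together, and the median of the other 18 was 0.26.

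Sfrp2 had 206, 263 and 256 scaled counts in RBPMS KD1, all above the D1 libraries (122, 111 and 108), and was 2.12-fold higher (log2 fold change 1.09, SE 0.14, adjusted p = 1.50e-07, edgeR). Its log2 fold change was 0.98 under quantile normalization and 0.80 in limma on the authors' normalised values, so that the call was lost there by size and not by p. Dkk3 had 358, 314 and 311 in RBPMS KD1, a log2 fold change of 0.87 (SE 0.12, adjusted p = 2.96e-07, edgeR), again with no overlap. Sfrp4 had 1161, 1287 and 1260.2, a log2 fold change of 0.47 (SE 0.060), where in P it was lower than in D1. Dkk4 had 957, 1186 and 965 (log2 fold change 0.24), and its pass was lost without D1 replicate 3 (0.18) or RBPMS KD1 replicate 2 (0.14) and in limma (0.22).

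Wnt9a was the ligand with the smallest adjusted p. Its RBPMS KD1 libraries had 504, 504 and 507 scaled counts against 347, 326 and 347 in D1, a log2 fold change of 0.57 (SE 0.084, adjusted p = 1.03e-06, edgeR), where in P it was lower than in D1. Wnt10b was 326 ± 16.3 (log2 fold change 0.41) while the overlapping Tuba1c had 14442 to 15163 counts, fewer than in D1. Wnt5a, at 2070.0, 2075 and 1973, was lower than in D1 by adjusted p (log2 fold change -0.15, SE 0.048), though not without D1 replicate 2 (-0.093, adjusted p = 0.112, edgeR) or in limma (-0.12, adjusted p = 0.0944). Wnt4, at 299, 266 and 335, overlapped D1 (log2 fold change -0.27, adjusted p = 0.0272), and its pass was lost without D1 replicate 2 (-0.20) or without RBPMS KD1 replicate 1 (-0.27) or 2 (-0.19) and in limma (-0.28). Wnt2b had 33.3, 22.3 and 32.1 in RBPMS KD1 against 19.4, 18.6 and 13.2 in D1, without overlap but not past the adjusted p (log2 fold change 0.77, SE 0.36, adjusted p = 0.0698), which it did pass with at least 10 counts in every library (0.78, adjusted p = 0.0359, edgeR). Wnt5b (-0.46, SE 0.58), Wnt6 (0.0071, SE 0.44) and Wnt11 (0.16, SE 0.48) did not pass either, each on few counts, as the log2 standard errors show. Wnt2 was tested in neither knockdown, with 6.05, 0 and 10.0 scaled counts in RBPMS KD1 and 0, 7.91 and 2.19 in MBNL KD.

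Among the receptors, Fzd5 and Fzd6 were higher in RBPMS KD1 by adjusted p, where in P both were lower than in D1. Fzd5 had 996, 944 and 946 scaled counts in RBPMS KD1, a log2 fold change of 0.52 (SE 0.069, adjusted p = 1.68e-07, edgeR). Fzd6, whose loss disturbs the patterning of hair, had 15038, 15237 and 14825 in D1 and 19594, 20592 and 20498 in RBPMS KD1 (log2 fold change 0.43, SE 0.026, adjusted p = 3.14e-14, edgeR). Both sets of libraries stood clear of D1. Fzd4 (0.27), Fzd1 (0.15) and Fzd2 (0.12) were higher by smaller log2 amounts, Fzd1 not past the threshold without RBPMS KD1 replicate 2 (0.098, adjusted p = 0.0507, edgeR). Fzd3, an axon guidance receptor, was lower, at 479, 417 and 339 against 549.8, 578 and 522 in D1 (log2 fold change -0.42, SE 0.096). Fzd7 passed by -0.11 with overlapping libraries, and lost its pass without D1 replicate 1 (-0.096), D1 replicate 3 (-0.075) or RBPMS KD1 replicate 2 (-0.061), under upper quartile scaling (-0.076) and quantile normalization (-0.082), and in limma (-0.080). Fzd8 (-0.0074, SE 0.037) and Fzd9 (0.099, SE 0.27) did not pass.

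The comparison of MBNL KD with D1 asks the same of the loss of Mbnl1 and Mbnl2. The ligands Wnt4, Wnt5a and Wnt9a were lower, Fzd2, Fzd3, Fzd4, Fzd5 and Fzd6 were lower by smaller amounts, and Fzd1 and Fzd7 were higher. Of 20 genes tested, 0 were called higher and 2 lower, where 6.1% and 4.14% of all 16053 tested genes were. By adjusted p alone 3 were higher and 10 lower, against 33.8% and 33.7% of all genes, and the median log2 fold change was -0.17 against 0.0099. DESeq2 also called 0 higher, and at an unadjusted p under 0.05 edgeR had 4 higher. Wnt5b and Wnt6 passed the filter only through MBNL KD, and Wnt2b only through D1.

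Wnt5a, a ligand of the beta-catenin-independent branch and of smooth muscle and mesenchyme in general, had 2172, 2435 and 2178 scaled counts in D1 and 1019.9, 1042 and 1016 in MBNL KD. It fell by 1.14 on the log2 scale (SE 0.053, adjusted p = 9.65e-18, edgeR) to 45.4% of the D1 level, and leaving out any 1 library gave falls from 1.09 to 1.18. Wnt4 had 160.2, 127 and 138 in MBNL KD, a log2 fold change of -1.35 (SE 0.12, adjusted p = 4.17e-11, edgeR) and 39.1% of the D1 level. In neither gene did the groups overlap, and Wnt4 stood about as low in MBNL KD as in P (145 ± 15.3 scaled counts in P and 142 ± 17.1 in MBNL KD, SD, n = 3), which were not compared by a test. Wnt9a had 209, 158 and 162 in MBNL KD, a log2 fold change of -0.94 (SE 0.12, adjusted p = 3.94e-08, edgeR), just short of the size threshold and past it at -1.08 both without MBNL KD replicate 1 and under quantile normalization. Wnt10b was 336 ± 11.7 (log2 fold change 0.46), with 13216 to 15301 counts of the overlapping Tuba1c.

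The low ligands did not pass in MBNL KD. Wnt5b had 29.9, 21.8 and 30.7 scaled counts (log2 fold change 0.80, SE 0.43, adjusted p = 0.107), and without D1 replicate 2 it was called higher (1.27, adjusted p = 0.0315, edgeR). Wnt2b (-0.64, SE 0.46) and Wnt6 (-0.16, SE 0.46) did not pass either, although all 3 Wnt2b libraries of MBNL KD lay below those of D1, and in limma on the normalised values Wnt2b was lower by adjusted p (-0.28, adjusted p = 0.0354). Wnt11, with 2.99, 5.93 and 6.57, missed the filter on low counts, and without D1 replicate 1 it passed and was called lower (-1.75, adjusted p = 0.0153, edgeR). With 3, 6 and 6 counts in MBNL KD, Wnt11 could pass there only through D1, where it is high, so this call is given as description.

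Fzd1 had 3409.8, 3432 and 3313 scaled counts in D1 and 6582, 6686 and 6328 in MBNL KD, 1.93-fold more and with no overlap. Its log2 fold change of 0.95 (SE 0.032, adjusted p = 3.20e-21, edgeR) lay under the size threshold, and at 1.03 under upper quartile scaling, 1.02 under quantile normalization and 1.01 in limma on the normalised values it lay over it. Fzd7 was also higher, at 7465, 7338 and 7171 (log2 fold change 0.32, SE 0.032), where in P it was lower than in D1. Fzd2, the Frizzled with the largest fall on the log2 scale, had 15376, 15326 and 15850.1 in D1 and 10648, 10721 and 9956 in MBNL KD (log2 fold change -0.57, SE 0.026, adjusted p = 4.72e-18, edgeR). Fzd3 (-0.32), Fzd5 (-0.31), Fzd4 (-0.30) and Fzd6 (-0.17) were lower on the log2 scale, each with every MBNL KD library below every D1 library. Fzd8 (-0.082, adjusted p = 0.0490) overlapped D1 and lost its pass under 13 alternatives, without D1 replicate 2 or 3 and without MBNL KD replicate 2 or 3 among them (-0.051 to -0.087). Fzd9 did not pass (-0.17, SE 0.28).

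Of the inhibitors, Sfrp2 was lower in MBNL KD, at 69.7, 67.3 and 74.4 scaled counts (log2 fold change -0.69, SE 0.18, adjusted p = 0.00154, edgeR), the reverse of its direction in RBPMS KD1. Dkk3, at 196, 217 and 192, overlapped D1 (log2 fold change 0.17, SE 0.13, adjusted p = 0.265). Sfrp4 (-0.056, SE 0.065) and Dkk4 (0.15, SE 0.069, adjusted p = 0.0540) did not pass, Dkk4 by a small margin, since it did under upper quartile scaling (0.23), under quantile normalization (0.17), with at least 10 counts in every library (0.16) and on leaving out D1 replicate 1 (0.19) or MBNL KD replicate 1 or 2 (0.18 each).

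A direct test between the knockdowns, which does not use D1, asked where MBNL KD and RBPMS KD1 differ from each other. Sfrp2, Wnt9a and Wnt4 were lower in MBNL KD, while Fzd1 and Fzd7 were higher. Of 21 genes tested, 1 was called higher and 5 lower in MBNL KD, where 5.88% and 6.03% of all 16111 tested genes were. By adjusted p alone 3 were higher and 12 lower, against 35.1% and 34.5% of all genes, with a median log2 fold change of -0.58 against 0.01. DESeq2 called 1 of the 21 higher and 6 lower. Wnt2b and Wnt11 passed the filter only through RBPMS KD1, and Wnt5b only through MBNL KD, and among the 18 that passed through both groups 0 were called higher and 3 lower.

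Sfrp2 differed most, with a log2 fold change of -1.78 (SE 0.16, adjusted p = 1.56e-11, edgeR), the MBNL KD libraries holding 29.1% of the RBPMS KD1 level. Wnt9a had a log2 fold change of -1.52 (SE 0.11, adjusted p = 1.21e-13, edgeR) and Wnt4 one of -1.09 (SE 0.13, adjusted p = 1.06e-08). In these 3 genes every MBNL KD library lay below every RBPMS KD1 library, and the Wnt4 call was lost by size in limma on the normalised values (-0.98). Wnt5a was at the edge of the size threshold, at -0.996 (SE 0.052, adjusted p = 7.39e-17, edgeR), and was called without RBPMS KD1 replicate 3 (-1.03) and without MBNL KD replicate 1 (-1.002) or 2 (-1.02). Among the ligands of few counts, Wnt2b (-1.42, SE 0.41) and Wnt11 (-1.48, SE 0.54) were called lower and Wnt5b (1.25, SE 0.47) higher. Wnt11 lost its call without RBPMS KD1 replicate 2 (-1.29) or MBNL KD replicate 1 (-1.21). Wnt5b overlapped between the groups and lost its call without RBPMS KD1 replicate 1 (0.75) or 2 (1.15) and without MBNL KD replicate 1 (1.17) or 3 (1.16), and under quantile normalization its adjusted p was 0.0510 (edgeR). In limma on the normalised values none of these 3 was called, at -0.54 for Wnt2b, -0.36 for Wnt11 and 0.41 for Wnt5b, of which Wnt5b also missed the adjusted p (0.0630). By adjusted p alone, Fzd5 (-0.84), Dkk3 (-0.70), Fzd2 (-0.70), Fzd6 (-0.60), Fzd4 (-0.58) and Sfrp4 (-0.53) were lower in MBNL KD, and Fzd1 (0.80) and Fzd7 (0.42) higher, on the log2 scale. Fzd8 (-0.08, adjusted p = 0.0743, edgeR) passed only on leaving out RBPMS KD1 replicate 3 (-0.13) or MBNL KD replicate 1 (-0.13) or without the filter on low counts (-0.085).

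The other genes of the pathway were taken from lists of known co-receptors, modulators, intracellular components, target genes and polarity genes, some of which stand in more than 1 list. Their counts are read against the same shares of all genes as above. Of 6 co-receptors and alternative receptors, P had 2 called higher and 2 lower, and Ror1 and Ror2, both receptors of Wnt5a, differed in opposite directions. Ror2 had 151, 86.6 and 120.2 scaled counts in D1 and 2339, 2350.2 and 2327 in P (log2 fold change 4.29, SE 0.088, adjusted p = 9.73e-30, edgeR), while Ror1 had 5607, 5669 and 5592 in D1 and 358, 405 and 345 in P (log2 fold change -3.93, SE 0.050, adjusted p = 1.02e-35). Ptk7, a pseudokinase of the polarity pathway, went from 2.04, 11.3 and 2.04 to 167, 173 and 149 and passed the filter only through P. In RBPMS KD1 edgeR and DESeq2 each called 0 of 5 tested, and edgeR had 3 higher and 1 lower at an unadjusted p under 0.05. In MBNL KD only Ror2 was called of 5 tested, at 252, 240.3 and 284 (log2 fold change 1.12, SE 0.16), and not under quantile normalization (0.95), in limma on the normalised values (0.82) or without D1 replicate 2 (0.92). Between the knockdowns Ror2 was again the 1 gene called, higher in MBNL KD by 1.05 on the log2 scale, but not without RBPMS KD1 replicate 2 (0.89) or MBNL KD replicate 3 (0.97), under quantile normalization (0.99) or in limma (0.85). Of the 3 genes of ligand modification and export, Porcn, Wls and Notum, edgeR and DESeq2 called 0 in each comparison, and at an unadjusted p under 0.05 at most 1 differed in either direction. Notum, a lipase that inactivates Wnt ligands and which is named after its values were seen, had 5.10, 12.4 and 16.3 scaled counts in D1 and 0, 0.989 and 2.19 in MBNL KD. It missed the filter there, but passed it and was called lower without D1 replicate 1 (-3.65) and without MBNL KD replicate 1 (-2.75), 2 (-3.28) or 3 (-4.19). With 0, 1 and 2 counts in MBNL KD, Notum could pass only through D1, where it is high. The group in which it is high thus selected it, and these calls are given as description.

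**Figure D3:**
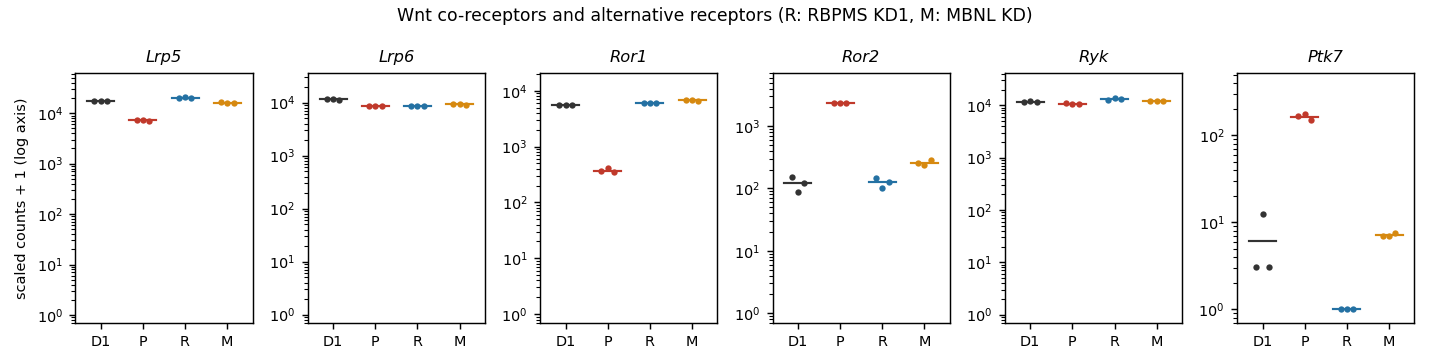
Scaled counts plus 1 (vertical axes, log scale) of the 6 Wnt co-receptors and alternative receptors in each library, by group on the horizontal axes, with a line at the group mean. Ror1 stood lowest and Ror2 and Ptk7 highest in P.

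Of 13 beta-catenin target genes, 12 were tested in P against D1, with 7 called higher and 2 lower and a median log2 fold change of 1.33. Of these, Apcdd1, Lgr5, Lef1 and Notum passed the filter only through P, and among the other 8, 4 were called higher and 2 lower with a median of 0.52. The called target genes differed in both directions. Nkd1, which binds Dishevelled, had 34.7, 34.0 and 20.4 scaled counts in D1 and 5688, 5304 and 5579 in P (log2 fold change 7.53, SE 0.080, adjusted p = 8.35e-38, edgeR). Apcdd1, a membrane protein that restrains Wnt signalling, had no count in D1 and 373, 388 and 404 in P, at least 126-fold higher against the limit of 3 counts in each D1 library. Lgr5, a receptor of the R-spondins, had 4.08, 3.09 and 0 in D1 and 380.1, 328 and 344 in P. Axin2, the scaffold of the beta-catenin destruction complex, had 509, 538 and 527 in D1 and 115, 102 and 118 in P (log2 fold change -2.24, SE 0.11, adjusted p = 8.19e-19). In RBPMS KD1 edgeR and DESeq2 each called 0 of 10 tested, with 2 higher and 3 lower in edgeR at an unadjusted p under 0.05. In MBNL KD 9 were tested, with 2 called higher and 1 lower. Ccn4, a secreted matricellular protein, rose from 4432, 4182 and 4514 in D1 to 17922, 17968 and 18075 in MBNL KD (log2 fold change 2.04, SE 0.026, adjusted p = 4.26e-31, edgeR) and in P was 2796 ± 85.2. Nkd1 had 75.6, 69.2 and 60.2 in MBNL KD (log2 fold change 1.204, or 0.99 both without D1 replicate 3 and under quantile normalization and 0.57 in limma, under the size threshold) and Axin2 215, 221 and 215 (log2 fold change -1.27, SE 0.094). Between the knockdowns, Ccn4 was higher (log2 fold change 2.47) and Axin2 lower (log2 fold change -1.61) in MBNL KD, Axin2 having 660.1 ± 15.6 in RBPMS KD1.

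**Figure D4:**
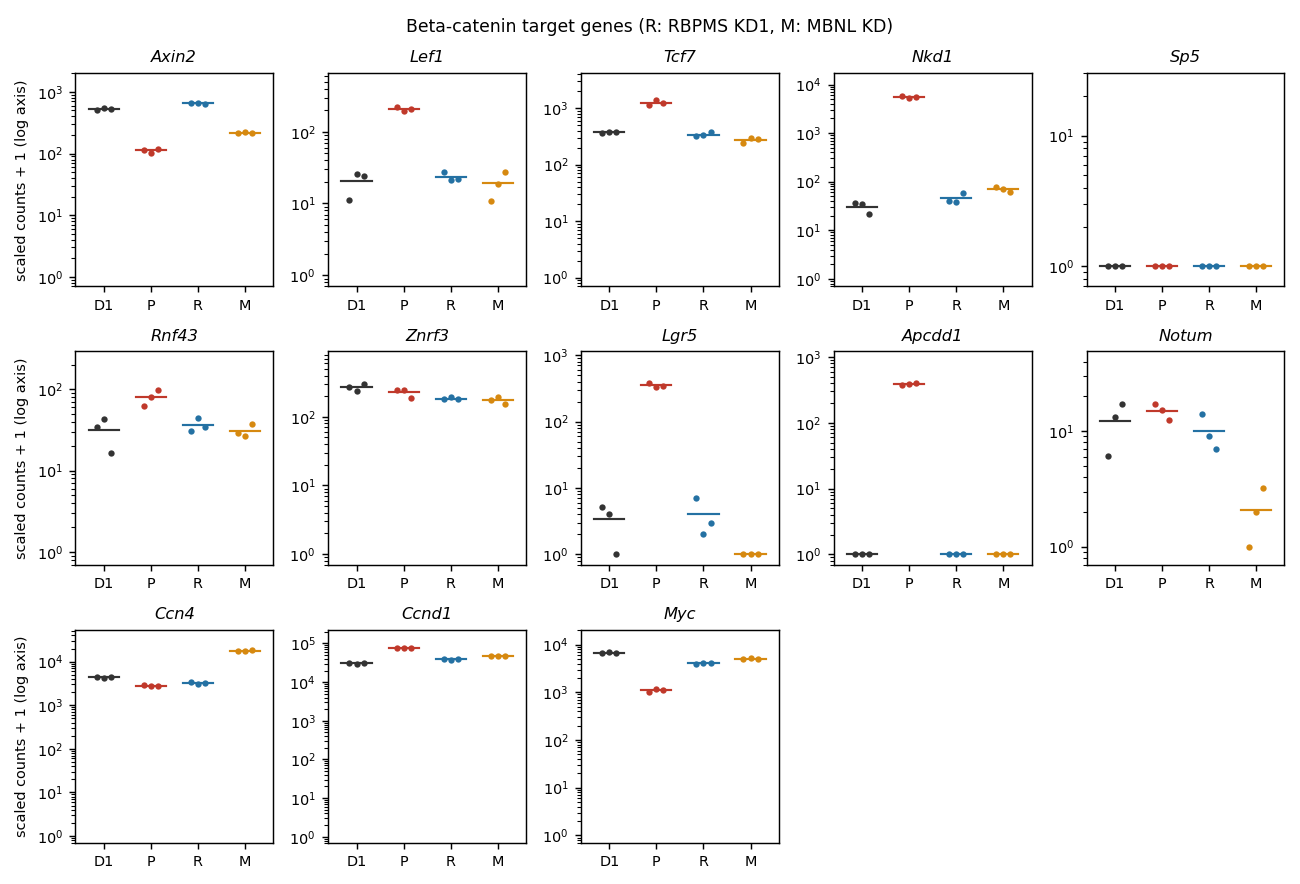
Scaled counts plus 1 (vertical axes, log scale) of the 13 beta-catenin target genes in each library, by group on the horizontal axes, with a line at the group mean. Nkd1, Lgr5 and Apcdd1 stood highest in P, Axin2 lowest in P, and Ccn4 highest in MBNL KD, while Sp5 had no count.

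Of 21 other extracellular modulators, 16 were tested in P, with 9 called higher and 3 lower, and 6 of the 9 passed the filter only through P. Further, 12 were tested in RBPMS KD1 with 2 called higher and 0 lower (3 lower at an unadjusted p under 0.05, and 0 called lower by DESeq2), and 12 in MBNL KD with 4 called higher and 1 lower. The proteoglycan Gpc3 had 14.3, 6.18 and 14.3 scaled counts in D1, 368 ± 28.3 in P (SD, n = 3) and 41.8, 62.3 and 65.7 in MBNL KD, having passed the filter only through P and through MBNL KD. Wif1, a secreted Wnt-binding inhibitor, had 17.3, 14.4 and 16.3 in D1 and 67.6, 55.6 and 66.1 in RBPMS KD1 (log2 fold change 1.97, SE 0.31, adjusted p = 3.22e-06, edgeR), with no overlap, though in limma it was under the size threshold (0.93). Lgr6, another R-spondin receptor, had 8.16, 2.06 and 14.3 in D1, 14.1, 26.3 and 23.0 in RBPMS KD1 and 56.7, 78.1 and 30.7 in MBNL KD, called higher in both. It overlapped D1 in RBPMS KD1, passed the filter only through the knockdown libraries, and lost its RBPMS KD1 call without D1 replicate 1 (1.35) or 2 (0.91) or RBPMS KD1 replicate 2 (1.17) or 3 (1.29) and in limma (0.39). In MBNL KD limma put Lgr6 (0.999) and Gpc3 (0.92) under the size threshold. Cthrc1, a secreted protein that binds Wnt and Ror2, had 13.3, 15.5 and 24.5 in D1 and 68.7, 112 and 105 in MBNL KD (log2 fold change 2.42, SE 0.29). Rspo2, an R-spondin, was lower in MBNL KD than in RBPMS KD1 by 1.58 on the log2 scale, at 35.8, 31.6 and 39.4 against 90.7, 113 and 114. Its level was 141 ± 18.2 in D1 and 25.3 ± 7.23 in P (SD, n = 3).

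Of 27 cytoplasmic and nuclear components all were tested in each comparison. P had 5 called higher and 4 lower, RBPMS KD1 had 0 and 0 in edgeR and in DESeq2 (6 higher and 12 lower at an unadjusted p under 0.05), and MBNL KD had 2 and 2. Lef1, a partner of beta-catenin on DNA, had a log2 fold change of 3.39 (SE 0.23) in P, having passed the filter through its P libraries alone, and Tcf7l1, a mostly repressive relative, one of -2.29 (SE 0.043). In MBNL KD the Nkd1 relative Nkd2 had one of 1.42 (SE 0.053) and Apc2, a relative of the tumour suppressor Apc, one of -1.21 (SE 0.25), which in limma was -0.86 and under the size threshold. By adjusted p alone 2 of the 27 were higher and 16 lower in MBNL KD, with a median log2 fold change of -0.31. Of 10 planar cell polarity genes 9 were tested, with 1 called higher and 4 lower in P, 0 and 0 in RBPMS KD1, and 0 and 1 in MBNL KD, in edgeR and in DESeq2. At an unadjusted p under 0.05, 1 was higher and 6 lower in RBPMS KD1 and 3 higher in MBNL KD. Celsr1, a cadherin of the polarity complex, was 119 ± 19.5 in D1 and 1416 ± 70.7 in P (SD, n = 3; log2 fold change 3.56), and in RBPMS KD1 it was called lower without D1 replicate 3 (-1.0045). Daam1, a formin that links Dishevelled to actin, had a log2 fold change of -2.08 in P, and Prickle2, a cytoplasmic polarity protein, one of -1.95. Celsr2 was the polarity gene called in MBNL KD, with 3693, 3719.8 and 3901 in D1 and 805, 879 and 946 in MBNL KD (log2 fold change -2.11, SE 0.050, adjusted p = 6.15e-25, edgeR).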

How the data were processed

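Poly(A) RNA from 12 PAC1 cultures was made into directional libraries and sequenced in pairs. Per the labels, cells received 90 pmol of siRNA, again after 24 h, and were taken 48 h later, while the study's methods give a longer interval and a longer total time. Per the study's methods and the submitters' processing notes, the authors checked the reads with FastQC 0.11.9 and MultiQC 1.14, subsampled them with seqtk, aligned them with STAR 2.7.11b against the assembly mRatBN7.2, and used featureCounts to count reads per gene. The counts deposited by the authors are whole numbers for 33294 genes. A second deposited table holds normalised abundances, a signal that the authors made by removing noise with noisyR and normalising by quantiles; 26 of the 37 genes are in it. The strand setting and the counting of mates are not given in the sources used here, and among counts of up to 20, even numbers were 2.06 to 2.36 times as frequent as odd ones, so small counts may stand for fewer fragments.

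Library totals ran from 80842635 to 90771289, and p-values measure the spread between the 3 cultures of a group, which the methods call biological replicates. Counts were tested with the quasi-likelihood test of edgeR 4.0.16 in R 4.3.3 (filterByExpr, TMM factors) on the 6 libraries of each of 4 comparisons, with p-values adjusted by Benjamini-Hochberg over all genes tested. A call needed an adjusted p under 0.05 and a log2 fold change beyond 1, and standard errors were taken from the fold change and its F statistic. Scaled counts use TMM factors of all 12 libraries, and the detection limit was 3 counts a library, which covers counting error only. Alternatives were other scalings, other filters on low counts, DESeq2 1.42.0, limma 3.58.1 on log2 of the normalised values, 1 fit of all 12 libraries, a replicate block, halved counts and leaving out each library. Counts and medians over the genes that passed the filter through both groups were added after seeing the data. The scripts were tested on simulated data. Promoters came from RefSeq on GRCr8, and overlapping genes from its gene table, which is not the build of the counts.

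Genes were named by rule: of the 37, those tested at least once, of each pathway list up to 3 called genes with the largest change per comparison, and the siRNA targets. Exceptions are Notum and Bcl9l, beside the cell type markers and overlapping genes named above. The members and lists were chosen with earlier results of these data known. Cell type marker lists were smooth muscle, endothelial, fibroblast, leukocyte and epithelial. Protein sequences were not used here.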

Additional observations from a re-analysis of the deposited data

How the results depend on the processing

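Of 1323 recomputed fold changes of the tested Wnt, Frizzled, Sfrp and Dickkopf genes, 1217 kept their direction and lost or gained no pass, 65 lost a call or pass, 13 gained a pass, and 28 changed sign, each for a gene that missed the adjusted p in the comparison as reported. On the log2 scale these were, in RBPMS KD1, Fzd8 under upper quartile scaling (0.0232), quantile normalization (0.0226) and limma (0.0215), Fzd9 (-0.0159) and Wnt6 (-0.14) under quantile normalization, and Wnt6 in limma (-0.034). In MBNL KD it was Sfrp4 under upper quartile scaling (0.0197), and between the knockdowns Wnt10b under quantile normalization (-0.00295) and in limma (-0.00275). The others came from leaving out 1 library, over which the range spanned 0 for Fzd9 in P (-0.49 to 0.19). It did so in RBPMS KD1 for Fzd8 (-0.0269 to 0.0303), Fzd9 (-0.13 to 0.56), Wnt5b (-1.35 to 0.0369), Wnt6 (-0.38 to 0.41) and Wnt11 (-0.27 to 0.49). In MBNL KD it did for Fzd9 (-0.40 to 0.29) and Wnt6 (-0.52 to 0.24), and between the knockdowns for Fzd3 (-0.046 to 0.21), Wnt6 (-0.53 to 0.20) and Wnt10b (-0.014 to 0.0644). Of the pathway genes that passed the adjusted p as reported, the 1 to turn was Bcl9l, which in RBPMS KD1 went from lower to 0.015 under quantile normalization and 0.0138 in limma. Counts of the 37 genes called moved by over 1.5 times as follows. In P against D1, 3 were called higher with at least 10 counts in every library and 4 in limma. In RBPMS KD1 against D1, 0 were called higher under quantile normalization and in limma, and limma had 1 lower by adjusted p alone. In MBNL KD against D1, 1 was called higher under upper quartile scaling, quantile normalization and limma. In MBNL KD against RBPMS KD1, 0 were called higher under quantile normalization, with at least 10 counts in every library and in limma, while 3 were called lower with at least 10 counts and 2 in limma. The cause was not tested, except that fewer genes pass the stricter filter. Leaving out 1 library gave 6 to 8 called higher and 5 to 5 lower in P against D1. It gave 1 to 1 and 0 to 0 in RBPMS KD1 (2 to 4 lower by adjusted p alone), 0 to 1 and 2 to 3 in MBNL KD, and 0 to 1 and 4 to 6 between the knockdowns.

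Over all genes, calls higher and lower were 2758 and 1883 in P against D1, and 2342 and 2529 under quantile normalization, 1509 and 1424 with at least 10 counts in every library and 1582 and 1557 in limma. For RBPMS KD1 they were 487 and 258, and 382 and 324 under quantile normalization and 105 and 104 in limma. For MBNL KD they were 979 and 664, and 628 and 536 with at least 10 counts in every library and 388 and 396 in limma. Between the knockdowns they were 948 and 972, and 465 and 585 in limma. No scaling tried moved the median log2 fold change of all genes by over 0.1.

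The replicate numbers did not pair the samples, since the mean correlations of same-numbered deviations were 0.00292, -0.00471, -0.00156 and -0.00723 in the 4 comparisons. With the replicate block, calls over all genes were 2730 and 1863, 478 and 252, 971 and 663, and 948 and 967, and of the 37 genes Wnt2b in P (0.82, adjusted p = 0.0823, edgeR) and Fzd8 in MBNL KD (adjusted p = 0.0561) lost their pass. Some alternatives gave no value for the low ligands Wnt2, Wnt2b, Wnt5b, Wnt6 and Wnt11, which failed the stricter filter or the filter on halved counts in some comparisons. These genes had at most 102 counts in any library.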
